A study of Mus musculus with 27 samples.

Results

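The genes described here are those read above background in mouse embryonic fibroblasts (MEF) without PKBalpha, compared 4 h after 10 Gy of gamma radiation with the untreated cells of the same line. Of 18193 genes with a probe set of a single symbol, 10019 lay above background and 8174 did not. A gene counted as above background when its mean log2 intensity over the 6 arrays of the comparison passed 6.13, an intensity of 69.9, the maximum of 351 readings of 13 Y-linked probe sets in these cells, labelled female. The genes nearest that limit read 69.88 just inside it and 69.81 just outside it.

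RNA of 3 fibroblast lines was measured on 27 Affymetrix arrays, 3 for each of 9 groups, which were each line untreated, 4 h and 24 h after 10 Gy. The lines were wild type, PKBa -/- (the knockout described here) and PKBa -/- R, which the labels call a knockout with PKBalpha reconstituted or rescued. All 27 arrays were labelled passage 45, and the cells had been cultured for 24 h in medium with serum before irradiation. Each genotype was 1 line, the 3 replicates of a group were called biological without saying what separated them, and the labels do not say when the untreated cells were taken, so irradiation and time in culture cannot be told apart. p-values therefore measure the spread between arrays of a group, pooled over all 9 groups of the 3 lines. They do not measure the spread between lines of the same genotype. For 6 irradiated wild-type samples the description reads untreated, and groups were taken from the titles.

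Gamma rays break both strands of DNA. Cells answer through the ATM kinase and the transcription factor p53, which switches on genes of cell cycle arrest, repair and cell death, while radiation can also set off growth factor and stress kinase signalling that raises immediate early genes. PKBalpha, the product of Akt1, is a kinase activated by PI3 kinase. It phosphorylates FOXO transcription factors, which keeps them out of the nucleus, and the p53 ubiquitin ligase MDM2, and it takes part in the response to DNA breaks.

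Akt1 read 2.35, 52.7 and 24.9 on the untreated knockout arrays and 22.8, 34.1 and 65.5 at 4 h, below background on each, against a geometric mean of 3533 in untreated wild-type cells. The group means of the line labelled R were also below background, at 20.9 untreated and 19.6 at 4 h, so its Akt1 reading went against its label, and the position of the probe set relative to the deleted or the reintroduced part was not examined. Akt2, the gene of the sister kinase PKBbeta, read 645, 758 and 927 on the untreated arrays and 658, 634 and 809 at 4 h (-0.14 ± 0.14, adjusted p = 0.72). All 12 fibroblast markers lay above background, while none of 6 endothelial and none of 4 pluripotent cell markers did. Of the other marker genes above background, Cd14 and Csf1r were 2 of 7 for macrophages, Epcam 1 of 6 for epithelium, and Acta2 and Cnn1 2 of 6 for muscle. Ptprc, Cdh1 and Myod1, which define blood, epithelial and muscle cells, read at most 9.99, 20 and 30.6.

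The untreated array labelled replicate 2 stood apart from the others. It was 1 of 5 arrays of the series whose control readings for the 3' against the 5' end of Gapdh and of actin lay over 3 scaled median absolute deviations from the median in both ratios. The others were untreated replicate 2 and replicate 0 at 4 h of the wild type, and untreated replicate 1 and replicate 2 at 24 h of line R. Over the 10019 genes it correlated at 0.957 and 0.955 with the other untreated arrays, which correlated at 0.992 with each other, and the arrays at 4 h correlated at 0.989 to 0.993. Without this array, 18 genes passed the test described below over all genes, above background or not, 13 higher and 5 lower. Of the 67 genes that passed with all arrays, 10 were among them. Leaving out any other array of the comparison instead gave 0 to 3 genes. Values without the 5 arrays are given for genes of the lists whose call they change.

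Of the 10019 genes, 23 rose and 38 fell at 4 h (limma, Benjamini-Hochberg adjusted p below 0.05 over all 18193 genes). The rises had a median difference of 0.96 on the log2 scale, from 0.57 to 2.07, and the falls a median of -1.02, from -0.66 to -3.32. The rises took in transcription factors of the immediate early class (Nr4a1, Jun, Klf10) and genes of DNA synthesis and repair (Exo1, Mcm10, Pole2). They also took in members or targets of TGF-beta, BMP and NF-kappaB signalling (Id2, Tgfbr1, Tnfaip3). The falls took in secreted and matrix proteins (Angpt4, Bmp4, Tgfbi, Saa3), cell surface receptors (Egfr, Ephb3, Fzd5, Acvr2a) and enzymes of metabolism (Ppp1r3c, Pck2, Nnmt). Over all 18193 genes 67 were called, which is 0.368%, and of the 10019 genes above background 0.23% rose and 0.379% fell. The other 6 called genes lay below background and are not described.

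In each of the 61 genes the 3 arrays at 4 h lay wholly beyond the 3 untreated ones. That was so for many genes not called: over the 10019 genes the arrays at 4 h were all higher in 15.0% and all lower in 20.4%, and at an unadjusted p below 0.05 6.78% were higher and 10.8% lower. The median difference over all 10019 genes was -0.03, and 4605 differences were positive and 5414 negative. Adjusted p-values of the 61 genes lay between 0.017 and 0.05, close to the threshold, and the calls were sensitive to the arrays used. Without the 5 arrays that stood apart 138 of the 10019 genes were called, 63 higher and 75 lower, and 36 of the 61 were among them. Of the 67 calls over all genes, 2, 1 and 10 remained when untreated replicate 0, 1 or 2 was left out, and 0, 0 and 2 when replicate 0, 1 or 2 at 4 h was. The fit on the 6 arrays of the comparison alone called 0 genes, with 2358 at an unadjusted p below 0.05 in limma, and with quantile normalization 22 of the 67 remained. The split by direction depended on scaling, with 27 of all genes higher and 40 lower as deposited and 34 higher and 20 lower after setting the array medians equal, a step that raised the median of the 10019 genes by 0.11.

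**Figure D1:**
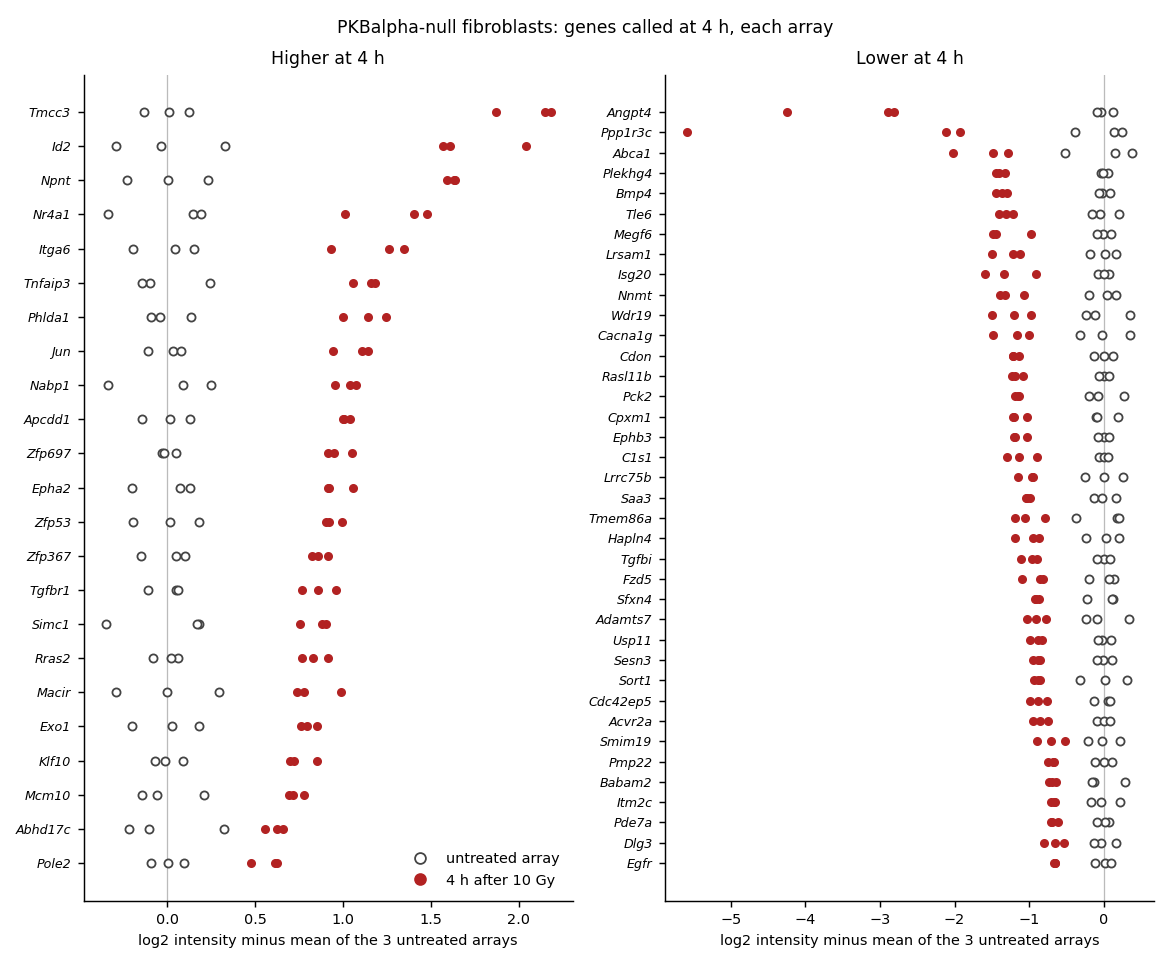
Log2 intensity of the 61 called genes on each of the 6 arrays, minus the mean of the 3 untreated arrays, with rises on the left and falls on the right and a different horizontal scale in each. Open circles are untreated arrays and filled circles arrays at 4 h, and in each gene they do not overlap. Ppp1r3c and Angpt4 stand out to the left, and their means at 4 h lay below background.

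Immediate early genes are switched on within minutes to hours of a signal without new protein synthesis. Of 27 such genes 25 lay above background, 3 rose and none fell. Over all 10019 genes 0.23% rose and 0.379% fell. Nr4a1, an orphan nuclear receptor, read 347, 249 and 359 on the untreated arrays and 876, 829.9 and 633 at 4 h, a 2.46-fold rise (1.30 ± 0.25, adjusted p = 0.034). Jun, a subunit of the AP-1 transcription factor, read 1060.0, 960.3 and 1091 on the untreated arrays and 2288, 2232 and 1994 at 4 h, a 2.09-fold rise (1.07 ± 0.20, adjusted p = 0.034). Klf10, a zinc finger factor also induced by TGF-beta, read 733, 683 and 656 on the untreated arrays and 1118, 1135 and 1246 at 4 h (0.76 ± 0.12, adjusted p = 0.024). In all 3 genes each array at 4 h read higher than each untreated array. The list as a whole had a median difference of 0.51, against -0.03 over all genes, with 19 of 25 positive, against 4605 of all 10019. Its median lay at 0.54, 0.54 and 0.31 on the 3 arrays at 4 h and at 0.01, -0.04 and 0.08 on the untreated ones. Nr4a2, a relative of Nr4a1, read 175, 153 and 211 on the untreated arrays and 375, 416 and 289 at 4 h and did not pass (1.00 ± 0.24, adjusted p = 0.073). Myc, which drives cell growth, read 1321, 1328 and 1190.1 on the untreated arrays and 2212, 2181 and 2138 at 4 h and did not pass either (0.77 ± 0.22, adjusted p = 0.13).

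Feedback inhibitors of ERK signalling, whose transcription follows the activity of the kinase, had 10 of 11 members above background and none called, with a median difference of 0.42 and 8 of 10 positive. The median was 0.31 without the 5 arrays and 0.23 when all probe sets of a gene were averaged. Dusp6, a phosphatase of ERK, read 328, 286 and 377 on the untreated arrays and 759.8, 775 and 744 at 4 h (1.21 ± 0.28, adjusted p = 0.062). Dusp5, a nuclear ERK phosphatase, read 133, 120.3 and 91 on the untreated arrays and 422, 364 and 229 at 4 h (1.53 ± 0.38, adjusted p = 0.079). Neither passed, although in both the arrays at 4 h lay above all untreated ones. Spry2, an inhibitor of receptor tyrosine kinase signalling, gave 0.85 ± 0.25, adjusted p = 0.14. Phlda1, a gene induced by growth factors that is on none of the lists, read 804, 836 and 944 on the untreated arrays and 1899, 2035 and 1721 at 4 h and rose 2.19-fold (1.13 ± 0.25, adjusted p = 0.05 after rounding). Rras2, which encodes a GTPase related to Ras, read 1320.5, 1197 and 1286 on the untreated arrays and 2155, 2254 and 2387 at 4 h (0.84 ± 0.15, adjusted p = 0.034). Epha2, a receptor tyrosine kinase for ephrins, read 240.0, 249 and 199 on the untreated arrays and 430.5, 431 and 475 at 4 h (0.96 ± 0.20, adjusted p = 0.043). In these 3 genes too the arrays of the groups did not overlap.

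Egfr, the receptor of epidermal growth factor, moved the other way. It read 363, 329 and 383 on the untreated arrays and 228, 228 and 224 at 4 h, a fall of 1.58-fold (-0.66 ± 0.13, adjusted p = 0.036), with the arrays at 4 h within a narrow band. Other probe sets of Egfr above background gave -0.73, -0.36 and 0.16. Its ligand genes Hbegf and Ereg read higher without passing. Hbegf read 907, 804 and 872 on the untreated arrays and 1986, 2373 and 1646 at 4 h (1.20 ± 0.30, adjusted p = 0.081) and Ereg 332, 289.6 and 243 on the untreated arrays and 731, 777 and 478 at 4 h (1.18 ± 0.44, adjusted p = 0.23). Angpt4, an angiopoietin that binds the TIE2 receptor, read 337, 323 and 376 on the untreated arrays and 46.6, 18.1 and 49 at 4 h. All of its readings at 4 h lay below background, so the fall is given as at least 4.94-fold (adjusted p = 0.036). Among the growth factors and receptors of fibroblasts 24 of 35 lay above background. The falls of Angpt4 and Egfr were the only calls, where 0.379% of the 10019 genes fell, and the list median was -0.02. Angpt4 was not called without the 5 arrays (adjusted p = 0.07), and the median was 0.13.

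Within the TGF-beta and BMP pathway ligands bind paired receptors that phosphorylate SMAD factors. Of its 42 genes 33 lay above background, 2 rose and 2 fell, where 0.23% of the 10019 genes rose and 0.379% fell. The ligand gene Bmp4 read 790.0, 847 and 770.1 on the untreated arrays and 312, 295 and 327 at 4 h, a 2.58-fold fall (-1.37 ± 0.29, adjusted p = 0.045). Tgfbr1, the type I receptor of TGF-beta, read 505, 451 and 509 on the untreated arrays and 829.6, 948 and 884 at 4 h, a 1.82-fold rise (0.86 ± 0.16, adjusted p = 0.034). Acvr2a, a type II receptor of activins and BMPs that is not on the list, read 897, 958 and 1016 on the untreated arrays and 527, 493 and 569.9 at 4 h and fell (-0.85 ± 0.16, adjusted p = 0.034). Receptor genes of the family thus moved in both directions. Among the targets, Id2, an inhibitor of helix-loop-helix factors, read 206, 172 and 264 on the untreated arrays and 625, 643 and 866 at 4 h, a 3.34-fold rise (1.74 ± 0.37, adjusted p = 0.045). Tgfbi, a matrix protein named for its induction by TGF-beta, read 6730.4, 7146 and 6353 on the untreated arrays and 3619, 3461 and 3125 at 4 h, a 1.98-fold fall (-0.99 ± 0.20, adjusted p = 0.039). Smad7, the inhibitory SMAD, read 438, 434 and 543 on the untreated arrays and 803, 753 and 944 at 4 h and did not pass (0.82 ± 0.21, adjusted p = 0.084). The list median was 0.17, with 20 of 33 positive, against 4605 of the 10019 genes. Bmp4 and Id2 were not called without the 5 arrays (adjusted p = 0.067 and 0.053), while Ltbp1, a binding protein of latent TGF-beta, was (0.91, adjusted p = 0.037).

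Of the NF-kappaB feedback and chemokine genes, 24 of 30 lay above background and 1 rose, where 0.23% of the 10019 genes rose. Tnfaip3, which encodes the ubiquitin-editing enzyme A20 that shuts NF-kappaB signalling off, read 293, 284 and 371 on the untreated arrays and 711, 700.2 and 654 at 4 h, a 2.19-fold rise (1.13 ± 0.20, adjusted p = 0.034). Ptgs2, the inducible cyclooxygenase, read 2579, 2525 and 2424 on the untreated arrays and 6129.9, 6026 and 5507 at 4 h and did not pass (1.23 ± 0.43, adjusted p = 0.21). Nfkbia, the inhibitor IkappaBalpha, gave 0.29 ± 0.12, adjusted p = 0.29. The list median was 0.00, with 12 of 24 positive. Saa3, an acute phase gene that NF-kappaB and inflammatory cytokines induce, fell instead. It read 7254, 7821 and 8877 on the untreated arrays and 3877, 3912 and 3993 at 4 h (-1.02 ± 0.14, adjusted p = 0.017), the lowest adjusted p of the 61. C1s1, a protease of the complement system, read 831, 869.7 and 908 on the untreated arrays and 466, 394 and 352 at 4 h (-1.12 ± 0.21, adjusted p = 0.034), and Isg20, an exonuclease induced by interferon, fell at least 1.83-fold from 128 to below background (adjusted p = 0.042).

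Promoter sequences of called genes are shown to place the motifs of the factors named above. Each is the 250 bases before an annotated transcription start in RefSeq (GRCm38.p6), 5′ to 3′, with matched motifs in capitals. A promoter was in the table for 18 of the 23 genes that rose (27 starts) and 30 of the 38 that fell (38 starts). The motifs, searched on both strands, were the CRE (TGACGTCA), AP-1 (TGAGTCA), FOXO (TGTTTAC), E2F (TTTCCCGC or TTTGGCGC), and the CArG box, the NF-kappaB site and the p53 decamer by their usual consensus. For the rises, the window of Tmcc3 lies at chr10:94550622-94550871, plus strand, that of Tnfaip3 at chr10:19015411-19015660, minus strand, and that of Epha2 at chr4:141300971-141301220, plus strand.
Tmcc3: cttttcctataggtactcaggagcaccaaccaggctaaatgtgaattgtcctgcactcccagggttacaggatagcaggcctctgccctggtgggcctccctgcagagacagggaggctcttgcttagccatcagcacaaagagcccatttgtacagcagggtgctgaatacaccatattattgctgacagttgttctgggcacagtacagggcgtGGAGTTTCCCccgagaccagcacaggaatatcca
Tnfaip3: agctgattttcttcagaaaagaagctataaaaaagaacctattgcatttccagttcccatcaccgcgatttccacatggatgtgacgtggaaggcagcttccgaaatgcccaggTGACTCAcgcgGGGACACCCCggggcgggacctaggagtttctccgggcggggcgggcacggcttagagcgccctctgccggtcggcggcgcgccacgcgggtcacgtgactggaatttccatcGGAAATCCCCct
Epha2: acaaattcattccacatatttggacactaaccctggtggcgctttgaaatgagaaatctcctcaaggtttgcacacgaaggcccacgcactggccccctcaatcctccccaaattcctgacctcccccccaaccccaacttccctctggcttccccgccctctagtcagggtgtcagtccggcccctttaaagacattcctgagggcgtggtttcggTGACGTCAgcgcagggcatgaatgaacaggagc
The capitals in Tmcc3 are an NF-kappaB match 34 to 25 bases before the start. In Tnfaip3 they are an AP-1 match at 136 to 130 and NF-kappaB matches at 125 to 116 and 12 to 3 bases before the start. In Epha2 they are a CRE at 33 to 26 bases before it. For the falls, the window of Isg20 lies at chr7:78913515-78913764, plus strand and that of Tgfbi at chr13:56609336-56609585, plus strand.
Isg20: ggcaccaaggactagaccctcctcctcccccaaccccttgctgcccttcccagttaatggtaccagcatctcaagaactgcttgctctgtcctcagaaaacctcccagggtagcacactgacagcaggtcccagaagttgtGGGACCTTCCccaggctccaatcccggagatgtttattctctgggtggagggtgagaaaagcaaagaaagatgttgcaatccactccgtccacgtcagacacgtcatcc
Tgfbi: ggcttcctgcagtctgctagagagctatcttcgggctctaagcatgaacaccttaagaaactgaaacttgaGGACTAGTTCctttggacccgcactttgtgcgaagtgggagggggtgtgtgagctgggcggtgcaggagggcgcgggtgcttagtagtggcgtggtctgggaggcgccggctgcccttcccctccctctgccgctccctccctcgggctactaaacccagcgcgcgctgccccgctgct
The match in Isg20 is an NF-kappaB site at 109 to 100 bases before the start, and that in Tgfbi a p53 decamer at 179 to 170. Npnt, Fzd5 and Pmp22 also held 1 NF-kappaB match each. No match is printed for Angpt4, Ppp1r3c and Abca1, the falls of greatest size. Promoters were available for 30 of the 38 falls, so a missing match need not mean that a promoter was searched.

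Motif counts over these promoters were small. An NF-kappaB match was in 4 of 27 promoters of rises, from 3 genes since overlapping windows of Tmcc3 hold the same site, and in 3 of 38 of falls, which is 14.8% and 7.89%, against 8.98% of the 10532 promoters of genes above background and 7.25% of all 32851 promoters. The CRE and the AP-1 motif were each in 2 of 27 promoters of rises (7.41%) and in none of 38 of falls, against 2.71% and 3.01% of genes above background. One of the AP-1 matches lies in the window of Tmcc3 not printed, at 15 to 9 bases before its start. The p53 decamer was in 3.7% of promoters of rises and 2.63% of falls, against 5.75% of genes above background. No promoter of either group held a FOXO motif or a CArG box, which 2.04% and 1.2% of promoters of genes above background held. Over the lists, E2F motifs were in 7 of 34 promoters of S phase and E2F genes (20.6%, against 2.68%) and CArG boxes in 6 of 25 promoters of immediate early genes (24%, against 1.2%). Those 6 promoters belong to 3 of 19 genes. These shares describe the letters in the window and no binding was measured.

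Genes of DNA synthesis read higher together. Of 41 S phase and E2F genes 38 lay above background, 36 had a positive difference, and in 26 all arrays at 4 h lay above all untreated ones, against 15.0% over all genes. Mcm10, which helps activate the replication fork helicase, was the only call and read 939.7, 779.5 and 735 on the untreated arrays and 1336, 1314 and 1393 at 4 h, a 1.66-fold rise (0.73 ± 0.15, adjusted p = 0.039). E2f7, a repressor among the E2F factors, gave 0.47 ± 0.11, adjusted p = 0.074, Rrm2, a subunit of ribonucleotide reductase, 0.64 ± 0.16, adjusted p = 0.081, and Mcm3, a helicase subunit, 0.55 ± 0.14, adjusted p = 0.077. None of these 3 passed. The list median was 0.41, at 0.41, 0.43 and 0.37 on the arrays at 4 h, while the untreated arrays lay at 0.15, 0.09 and -0.24. The lowest of these was the array that stood apart, and without the 5 arrays the list median was 0.28. Pole2, a subunit of DNA polymerase epsilon that is on none of the lists, read 915, 860.5 and 803 on the untreated arrays and 1315, 1192 and 1324 at 4 h and rose (0.57 ± 0.12, adjusted p = 0.045).

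Homologous recombination genes had 18 of 22 members above background, 15 of them positive, and a median difference of 0.31 (0.24 without the 5 arrays). Exo1, the exonuclease that trims broken DNA ends, was the only call of the list, where 0.23% of the 10019 genes rose. It read 979, 880.3 and 752 on the untreated arrays and 1467, 1499 and 1560.3 at 4 h, a 1.74-fold rise (0.80 ± 0.15, adjusted p = 0.034). Brca1 read 963, 783 and 953 on the untreated arrays and 1162, 1266 and 1326 at 4 h and did not pass (0.48 ± 0.11, adjusted p = 0.057), but passed without the 5 arrays (adjusted p = 0.038), where Exo1 did not (adjusted p = 0.052). Nabp1 and Babam2 are not on this list or on that of break sensing and end joining. Nabp1, a single-stranded DNA binding protein of the damage response, read 642, 574 and 426 on the untreated arrays and 1136, 1109 and 1046 at 4 h and rose 2.03-fold (1.02 ± 0.21, adjusted p = 0.042). Babam2, a subunit of the complex that brings BRCA1 to breaks, fell (-0.69 ± 0.14, adjusted p = 0.041), from 1789 to 1108, while a second probe set gave 0.09. Of 24 break sensing and end joining genes above background none was called, and the median was 0.11. Without the 5 arrays the median was 0.06 and Clspn, the checkpoint adaptor claspin, was called (0.44, adjusted p = 0.048). G2/M genes, needed to enter and complete mitosis, had a median of 0.00 over 34 members with none called, and Cdc25c, the phosphatase that triggers mitotic entry, gave -0.64 ± 0.21, adjusted p = 0.17. That median was -0.15 without the 5 arrays, and Cenpe, a kinesin of the kinetochore, was then called lower (-0.61, adjusted p = 0.037).

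No gene of the p53 target list passed the test, where few genes did at all: 0.23% of the 10019 rose and 0.379% fell. Of its 37 genes 30 lay above background, 14 were positive and 16 negative, and the median difference was -0.06. Cdkn1a, the gene of the cyclin-dependent kinase inhibitor p21, read 287, 328 and 138 on the untreated arrays and 234, 284 and 193 at 4 h (-0.01 ± 0.39, adjusted p = 1), and the groups overlapped. Mdm2 read 781, 701 and 338 on the untreated arrays and 885, 851 and 801 at 4 h (0.57 ± 0.53, adjusted p = 0.7), with the untreated array that stood apart lowest. Without the 5 arrays the difference was 0.19 for Mdm2 (adjusted p = 0.73) and -0.39 for Cdkn1a (adjusted p = 0.61). Ccng1, which encodes cyclin G1, read 1851, 2084 and 2372 on the untreated arrays and 1885, 1954 and 1957 at 4 h (-0.11 ± 0.22, adjusted p = 0.88). Dram1, a lysosomal protein of autophagy, had the smallest p of the list, and it read lower at 4 h, at 2941, 2990.2 and 2863 on the untreated arrays and 2029.7, 1811 and 1531 at 4 h (-0.72 ± 0.17, adjusted p = 0.06). Sesn2, a stress-inducible inhibitor of mTOR signalling, read 838, 759.8 and 853 on the untreated arrays and 598, 422 and 329.7 at 4 h (-0.90 ± 0.25, adjusted p = 0.12). Psrc1 gave -0.76 ± 0.23, adjusted p = 0.15. Rrm2b, the p53-inducible subunit of ribonucleotide reductase, gave 0.37 ± 0.13, adjusted p = 0.19.

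The same targets were read in the other lines. In wild-type cells 9 of the same 30 genes rose and 1 fell, with a median of 0.52, where 2.5% of the 10019 genes rose and 2.81% fell. The line labelled R had 1 rise and a median of -0.07. The difference between the responses of the knockout and the wild type was -1.86 ± 0.55 for Cdkn1a (adjusted p = 0.54), -0.80 ± 0.75 for Mdm2 (adjusted p = 1) and -0.93 ± 0.31 for Ccng1 (adjusted p = 0.64), and none of the 3 passed. With all arrays limma called none of the 10019 genes for this difference, with 473 at an unadjusted p below 0.05 and a lowest adjusted p of 0.11. Without the 5 arrays it called 12 of them, which is 0.12%, and 5 of the 12 were p53 targets: Ckap2 (-1.09, adjusted p = 0.021), Phlda3 (-1.33, 0.033), Ccng1 (-1.29, 0.034), Ei24 (-0.85, 0.042) and Gtse1 (-1.61, 0.042). That fit lacked untreated replicate 2 and replicate 0 at 4 h of the wild type and untreated replicate 2 of the knockout, each from a group of 3 arrays. In that fit Phlda3, an inhibitor of PKB binding to membranes, changed by -0.10 in the knockout and by 1.23 in the wild type, and Ccng1 by -0.02 and 1.27. Of the other 7, E2f8, Recql, Dennd2c, Slc19a2 and Mnd1 had a smaller value in the knockout and Thbs2 a larger one. B230311B06Rik is left undescribed, since its wild-type means of 4.67 untreated and 23.2 at 4 h lay below background.

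**Figure D2:**
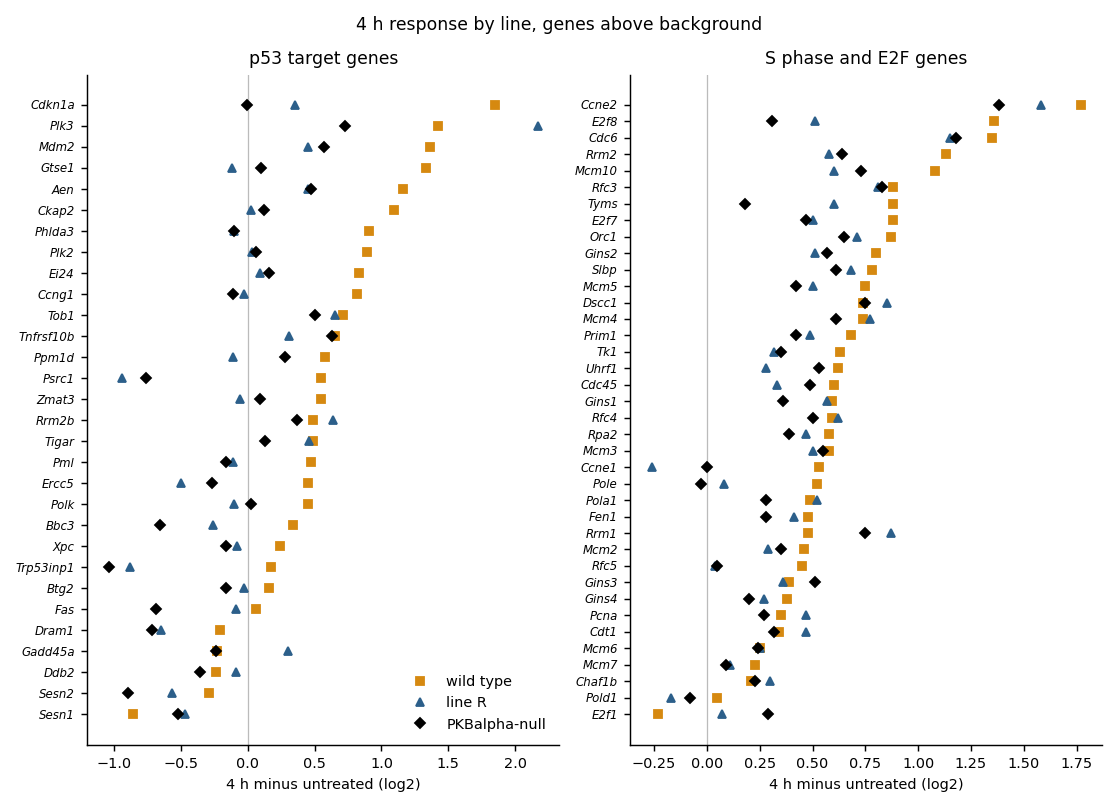
Difference between 4 h and untreated cells, on the log2 scale, for the p53 targets (left, 30 genes) and the S phase and E2F genes (right, 38 genes) above background, ordered by the wild-type value. Squares are wild type, triangles line R and diamonds PKBalpha-null cells. The medians of wild type and PKBalpha-null cells are 0.52 and -0.06 for p53 targets and 0.59 and 0.41 for S phase and E2F genes.

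Matrix genes read lower. Of 39 extracellular matrix genes 35 lay above background, 28 had a negative difference, and in 21 all arrays at 4 h lay below all untreated ones, against 20.4% over all genes. Tgfbi, described above, was the only call. Col6a1, a chain of collagen VI, read 7158, 7683 and 9718 on the untreated arrays and 4284, 4223 and 4489 at 4 h (-0.91 ± 0.23, adjusted p = 0.085), Mfap4, a microfibril protein, 805, 882 and 1033 on the untreated arrays and 270.4, 226 and 154 at 4 h (-2.09 ± 0.61, adjusted p = 0.13), and Dcn, the proteoglycan decorin, 4617, 5000.4 and 3753 on the untreated arrays and 2609, 2632 and 1822 at 4 h (-0.93 ± 0.27, adjusted p = 0.13). None of these 3 passed. The list median was -0.31, at -0.29, -0.30 and -0.25 on the arrays at 4 h and -0.04, -0.03 and 0.11 on the untreated ones. Among matrix genes on none of the lists, Adamts7, a metalloprotease, read 585, 651 and 872 on the untreated arrays and 368, 406 and 340.2 at 4 h and fell (-0.90 ± 0.20, adjusted p = 0.049). Hapln4, which links hyaluronan to proteoglycans, read 604, 723 and 820.3 on the untreated arrays and 310.4, 388 and 369 at 4 h (-1.0 ± 0.21, adjusted p = 0.045). Npnt, the matrix ligand nephronectin, moved the other way and read 186, 219 and 256 on the untreated arrays and 658, 679 and 678 at 4 h, a 3.07-fold rise (1.62 ± 0.30, adjusted p = 0.034). Itga6, an integrin subunit that binds laminin, read 352, 298 and 379 on the untreated arrays and 819.5, 868 and 650.3 at 4 h, a 2.26-fold rise (1.18 ± 0.21, adjusted p = 0.034).

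Most fibroblast markers also read lower, among matrix genes and others. Their summed intensity ran from 196890 to 211460 on the untreated arrays and from 163570 to 184490 at 4 h, and 11 of 12 had a negative difference (median -0.23, none called). Group means went from 19211 to 13587 for Col1a1, from 28831 to 22831 for Col3a1 and from 24232 to 18468 for Sparc. Those of Col1a2 went from 31278 to 26444 and those of Fn1 from 19317 to 17000. Of markers that are not matrix genes, Pdgfra went from 4346 to 2616, Vim from 27071 to 26733, Pdgfrb from 3551 to 3414 and Prrx1 from 6412 to 6972. Thy1 went from 12077 to 10052, S100a4 from 26227 to 24305 and Twist1 from 716 to 617. The part of the markers in the matrix result was not tested. In bulk RNA, fewer cells of a type and less RNA per cell cannot be told apart.

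Several enzymes and a transporter were among the remaining falls. Ppp1r3c, which targets protein phosphatase 1 to glycogen, read 328, 352 and 228 on the untreated arrays and 68.6, 78.1 and 6.22 at 4 h, and replicate 2 at 4 h was far below the others. Its mean at 4 h was below background, so the fall is given as at least 4.1-fold (adjusted p = 0.043). Abca1, the exporter of cholesterol from cells and a target of the LXR receptors, read 929, 789.8 and 496 on the untreated arrays and 293, 255 and 176 at 4 h, a 3.03-fold fall (-1.60 ± 0.34, adjusted p = 0.045). Its arrays did not overlap, but the spread within each group was wide. Of 12 LXR targets above background it was the only call, and 11 were negative (median -0.42, and -0.24 with probe sets averaged). In 9 of the 12 all arrays at 4 h lay below the untreated ones. Over all 10019 genes 5414 were negative, 0.379% were called lower, and in 20.4% all arrays at 4 h lay lower. Mylip, a ubiquitin ligase of lipoprotein receptors, gave -0.59 ± 0.19, adjusted p = 0.17 and Apoe -0.93 ± 0.31, adjusted p = 0.19. Pck2, the mitochondrial enzyme that makes phosphoenolpyruvate, read 3529, 3839 and 4853 on the untreated arrays and 1832, 1765 and 1818 at 4 h (-1.16 ± 0.24, adjusted p = 0.045). Nnmt, which methylates nicotinamide, read 572, 621 and 484 on the untreated arrays and 222, 212 and 265 at 4 h (-1.26 ± 0.24, adjusted p = 0.034).

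Pck2 is known as a target of ATF4, the factor of amino acid and unfolded protein stress, but was not on the list for it. That list had all 24 members above background, 23 of them negative against 5414 of the 10019 genes, none called, and a median of -0.30. In 15 of the 24 all arrays at 4 h lay below the untreated ones, against 20.4% over all genes. Asns, asparagine synthetase, read 6998, 7672 and 7097 on the untreated arrays and 4734, 4860.1 and 5106 at 4 h (-0.57 ± 0.15, adjusted p = 0.092). Trib3, a pseudokinase that binds PKB, read 768, 796 and 689 on the untreated arrays and 469, 391 and 381 at 4 h (-0.86 ± 0.26, adjusted p = 0.14). Cholesterol synthesis and uptake genes had 20 members above background with a median of -0.05 and none called. In wild-type cells 12 of the same 20 fell with a median of -0.85. Over all 10019 genes 2.81% fell in the wild type and 0.379% in the knockout. For Fdft1, squalene synthase, the difference between the 2 responses was 0.70 ± 0.28 (adjusted p = 0.81).

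FOXO factors, which PKB keeps out of the nucleus, and their target genes had 21 of 23 members above background, 15 of them negative. The list median was -0.23 and came to 0.00 when all probe sets of a gene were averaged. Sesn3, a FOXO target of the sestrin family, read 767, 705 and 669 on the untreated arrays and 393, 389 and 368 at 4 h and was the only call (-0.90 ± 0.19, adjusted p = 0.047). Sod2, the mitochondrial superoxide dismutase, gave -0.45 ± 0.15, adjusted p = 0.19. In the PI3 kinase, PKB and mTOR pathway 21 of 27 genes lay above background and none was called (median -0.13, and 0.04 without the 5 arrays), and Pik3r3, a regulatory subunit of PI3 kinase, gave -0.55 ± 0.13, adjusted p = 0.076. In the BCL2 family of survival and death genes 12 of 18 lay above background, none was called, and the median was 0.01. Mcl1, a survival gene of the family, was called higher without the 5 arrays (0.69, adjusted p = 0.045). Bnip3 read 2566, 2838 and 2192 on the untreated arrays and 1358, 1240.2 and 1204 at 4 h (-0.99 ± 0.24, adjusted p = 0.069) and Bmf 136, 168 and 112 on the untreated arrays and 63.7, 40.8 and 75.8 at 4 h (-1.24 ± 0.30, adjusted p = 0.074). The actin and SRF target list had no call and a median of 0.06, and its members with the smallest p were Ankrd1 (1.18 ± 0.27, adjusted p = 0.062) and Ccn1 (1.02 ± 0.25, adjusted p = 0.079), of which Ccn1 passed without the 5 arrays (1.10, adjusted p = 0.032, list median 0.17). No gene was called on the lists of heat shock, circadian clock, hypoxia, interferon-stimulated and Wnt signalling genes, whose medians were 0.12, -0.15, -0.12, -0.10 and -0.25. The last 2 lists do not hold Isg20, Fzd5 and Apcdd1, which were called. The hypoxia median was -0.24 and the Wnt median -0.12 without the 5 arrays.

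**Figure D3:**
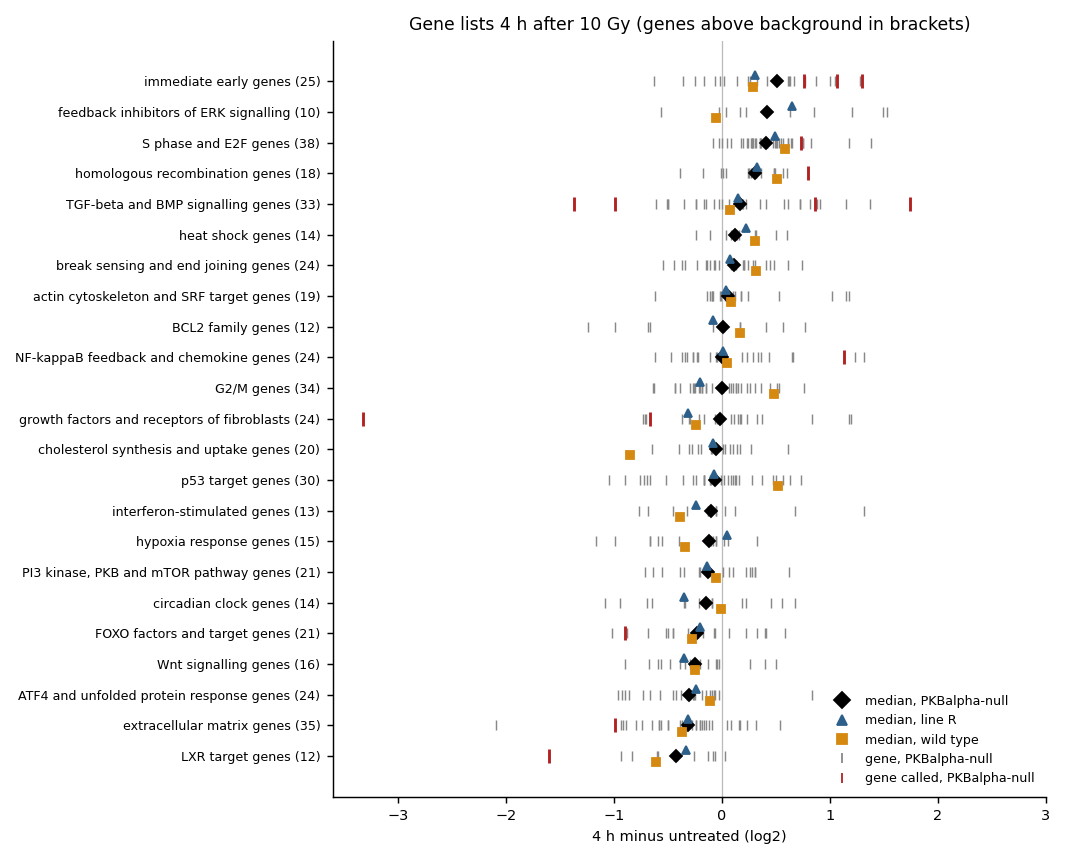
Difference between 4 h and untreated cells, on the log2 scale, for 23 gene lists ordered by the median in PKBalpha-null cells. Ticks are genes above background in PKBalpha-null cells, with called genes in red, and symbols are list medians in each line. Medians of PKBalpha-null cells run from -0.42 for LXR targets to 0.51 for immediate early genes.

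Receptors and other surface proteins on none of the lists fell as well. Ephb3, an ephrin receptor, read 899, 940.1 and 851 on the untreated arrays and 439, 392 and 389.6 at 4 h (-1.14 ± 0.22, adjusted p = 0.034), while its relative Epha2 rose. Cdon, a co-receptor of Hedgehog, read 1429.5, 1697 and 1572 on the untreated arrays and 708, 671 and 672 at 4 h, a 2.29-fold fall (-1.19 ± 0.18, adjusted p = 0.018). Fzd5, a Wnt receptor, read 491, 469 and 392 on the untreated arrays and 254, 248 and 209.7 at 4 h (-0.92 ± 0.20, adjusted p = 0.045), and Apcdd1, a membrane inhibitor of Wnt signalling, rose from 227 to 459 (1.01 ± 0.20, adjusted p = 0.036). Cacna1g, a T-type calcium channel, read 291, 358 and 463 on the untreated arrays and 162, 181 and 129.7 at 4 h (-1.22 ± 0.25, adjusted p = 0.042). Sort1, the sorting receptor sortilin, gave -0.89 ± 0.15, adjusted p = 0.034 and Pmp22, a membrane protein of myelin that fibroblasts also make, -0.70 ± 0.13, adjusted p = 0.034. In each of these genes the arrays of the 2 groups did not overlap.

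The gene with the largest rise was Tmcc3, a coiled-coil protein of the endoplasmic reticulum membrane. It read 176, 163 and 148 on the untreated arrays and 593, 718 and 735 at 4 h, a 4.19-fold rise (2.07 ± 0.37, adjusted p = 0.034), and its 4 other probe sets above background gave 1.26, 1.64, 1.72 and 1.58. The rises not yet named were Zfp697, Zfp53, Zfp367, Simc1, Macir and Abhd17c, from 0.61 to 0.97. Zfp367, a zinc finger factor, had the smallest adjusted p of the rises (506, 441 and 526 on the untreated arrays and 886, 922 and 868 at 4 h, 0.86 ± 0.14, adjusted p = 0.018). The falls not yet named were Plekhg4, Tle6, Megf6, Lrsam1, Wdr19, Rasl11b, Cpxm1, Lrrc75b, Tmem86a, Sfxn4, Usp11, Cdc42ep5, Smim19, Itm2c, Pde7a and Dlg3. They ran from -1.39 for Plekhg4 (1054, 989 and 1009 on the untreated arrays and 373, 406 and 384 at 4 h), to -0.66 for Dlg3, a scaffold protein. Of the genes with other probe sets above background, 15 rises had 24 such probe sets, all with a positive difference, and 12 falls had 22, of which 18 were negative. The positive value of Zfp53 was 0.00 after rounding. Tested one by one over all probe sets, 3 of the 24 and none of the 22 passed (limma, added after the data had been seen).

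The called genes were set beside the other lines, which share no array with this comparison but enter the same estimate of the spread. In the line labelled R, 23 of 23 rises and 38 of 38 falls had the same sign, and 10 rises and 26 falls were called there too. Over all 10019 genes, 44.8% were positive in that line and 55.2% negative, 0.439% were called higher and 1.21% lower. In wild-type cells 22 of 23 rises and 36 of 38 falls had the same sign, and 8 and 15 were called, with 50.3% of all genes positive and 49.7% negative. Zfp367, Macir, Exo1, Klf10 and Pole2 rose in all 3 lines, and Itm2c, Babam2, Cdc42ep5, Usp11, Sfxn4, Tgfbi, C1s1, Cpxm1, Wdr19, Megf6 and Angpt4 fell in all 3.

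The genes that went the other way in the wild type were Npnt, Pde7a and Acvr2a. Npnt changed by 1.08 in line R and -0.49 in the wild type, and the difference between knockout and wild type was 2.11 ± 0.42 (adjusted p = 0.14). For Acvr2a the difference was -1.11 (adjusted p = 0.16) and for Pde7a, a cyclic AMP phosphodiesterase, -0.86 (adjusted p = 0.25). Tmcc3 changed by 1.66 in line R (adjusted p = 0.042) and by 0.19 in the wild type (adjusted p = 0.86), and the difference between knockout and wild type gave 1.88 ± 0.53 (adjusted p = 0.5). None of these differences passed. Between the knockout and line R limma called no gene for a difference in response, with 84 of the 10019 genes at an unadjusted p below 0.05.

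**Figure D4:**
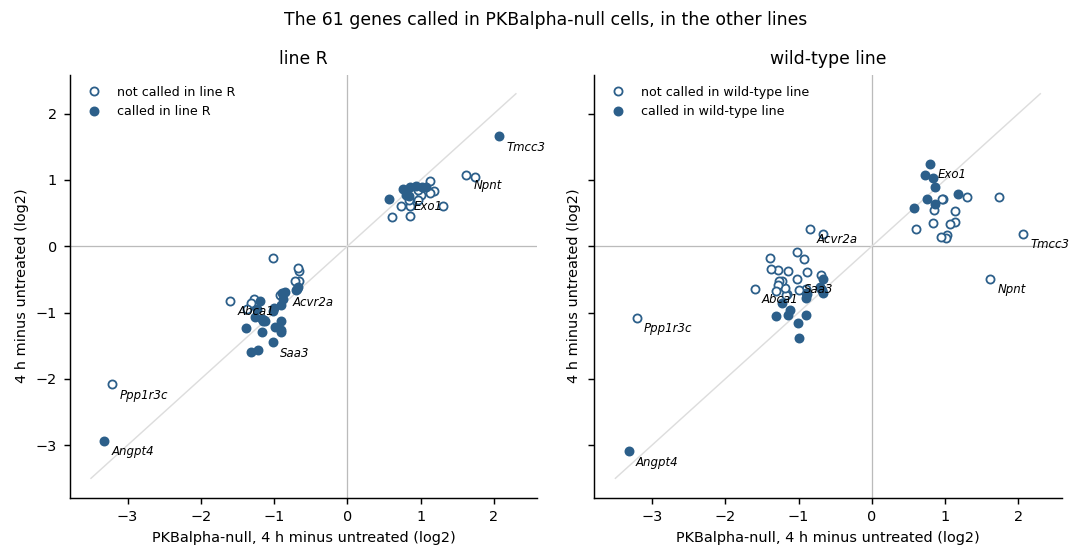
Difference between 4 h and untreated cells, on the log2 scale, in PKBalpha-null cells (horizontal) against line R (left, vertical) and the wild type (right, vertical) for the 61 called genes. Filled circles passed the test in the line on the vertical axis, and the diagonal marks equal values. All 61 points share their sign between PKBalpha-null cells and line R, and 58 do in the wild type.

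At 24 h most of the 61 genes lay between their untreated level and their level at 4 h. That held for the geometric mean of 22 of 23 rises and 36 of 38 falls. The mean at 24 h was nearer the untreated level than the level at 4 h in 8 rises and 35 falls, a description with no test, since the genes were chosen for their values in both of those groups. Nr4a1 read 1033, 750.3 and 1064 at 24 h, with a mean above that at 4 h. C1s1 and Isg20 were back at or above their untreated means. Tgfbi read 5515, 7431 and 6405 and Saa3 6116, 6926 and 7651. Tmcc3 read 545, 158 and 275 and Id2 721, 202 and 407 at 24 h, so that replicate 0 was near the values at 4 h and replicate 1 near the untreated ones. Replicate 0 at 24 h was also the array nearest to the 4 h values for Bmp4 (277, 670.3 and 643), Angpt4 (69.1, 253 and 312) and Exo1 (1206, 858 and 817).

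**Figure D5:**
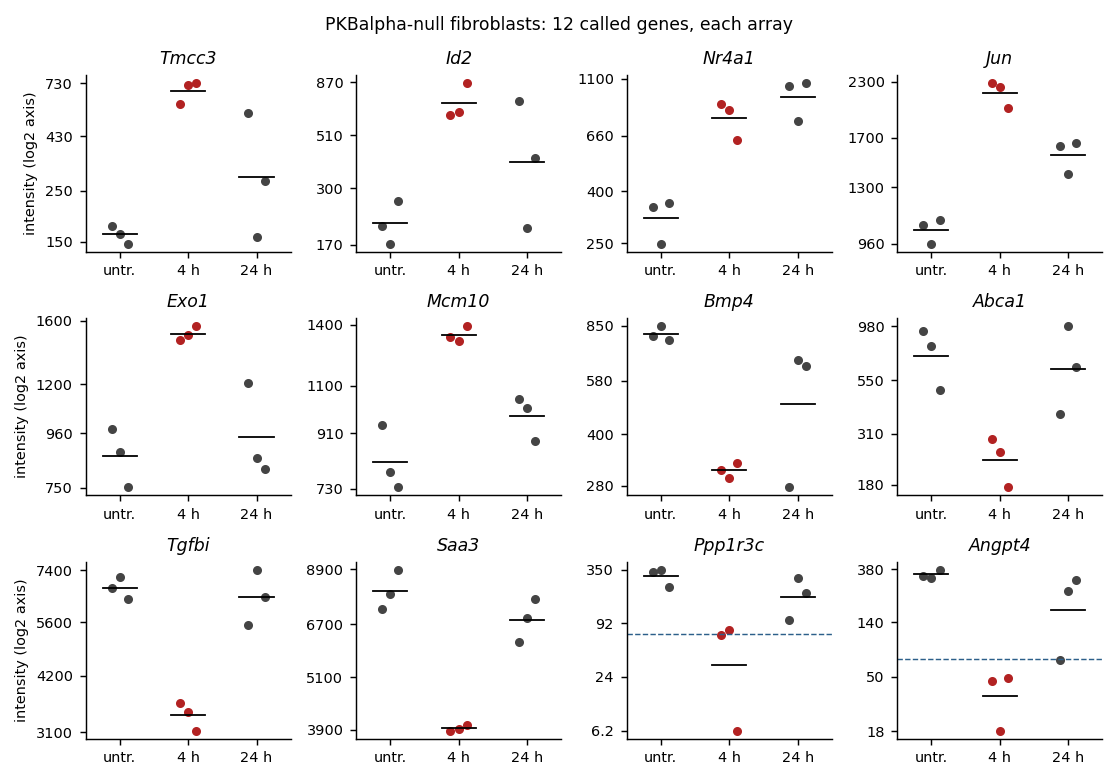
Intensity of 12 called genes on each array of PKBalpha-null cells, untreated, 4 h and 24 h after 10 Gy, on log2 axes that differ between genes. Points are arrays, with 4 h in red, short lines are geometric means, and the dashed line in the panels of Ppp1r3c and Angpt4 is the background of 69.9. In each gene the arrays at 4 h lie apart from the untreated ones. The arrays at 24 h are widely spread in some genes, such as Tmcc3 and Id2, while those of Ppp1r3c are most spread at 4 h.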

How the data were processed

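The deposited table holds linear intensity values of 45101 probe sets, scaled by the authors to 1 trimmed mean on each of the 27 arrays. RMA and GCRMA are listed, with no version, in the submitters' processing notes, and how the probes were summarised is not given in the sources used here. Intensity has no counting depth, so 3 arrays per group limit the precision.

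Intensities were taken to log2 without an offset or further normalization. Of the probe sets, 34945 carried 1 gene symbol, 932 several and 9160 none, 64 were controls, and 34741 were matched to the RefSeq gene table. The brightest single-symbol probe set stood for each gene. Genes differ in how many probe sets they have, and their levels were not compared.

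The test was limma 3.58.1 (R 4.3.3) on 9 group means (18 residual and 1.39 prior degrees of freedom), two-sided, with Benjamini-Hochberg adjustment over 18193 genes, and the code was tested on simulated data. Levels of groups are geometric means, and errors are standard errors of the model. Where a group's mean lay below background the fold was taken against the background on each array as a lower bound.

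The genes, lists, motifs and naming rule were chosen with earlier results of these data known. The rule named every gene called, up to 4 genes per list with the smallest p, and Akt1, Akt2, Cdkn1a, Mdm2 and Ccng1. Promoters were named for up to 4 called genes in each direction with a motif. Replicate numbers did not pair the arrays: deviations from the group means of arrays with the same number correlated at 0.08, 0.06 and 0.13.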

Additional observations from a re-analysis of the deposited data

Results flagged for a closer look

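C430042M11Rik and D630004K10Rik passed limma's test of the difference between the 4 h responses of the knockout and the wild type, with -5.53 (adjusted p = 0.025) and -3.14 (adjusted p = 0.0055) on the log2 scale. Both lay below background in all 4 groups, with geometric means of 8.8 and 2.09 in the knockout and 1.9 and 21 in the wild type for C430042M11Rik, and 38.1, 36.9, 2.63 and 22.4 for D630004K10Rik, so no fold is given for either.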

How the results depend on the processing

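Over all 18193 genes, 67 were called in the knockout at 4 h, 27 higher and 40 lower, with 2358 at an unadjusted p below 0.05. The count was 185 (68 higher, 117 lower) with an intensity trend, 139 (51 and 88) with an offset of 32 before log2, 298 (101 and 197) when only genes above background were fitted, and 166 (80 and 86) without the 5 arrays. It was 22 (13 and 9) with quantile normalization, 22 (7 and 15) with probe sets averaged, 54 (34 and 20) with equal array medians, and 0 (0 and 0) in limma on the 6 compared arrays alone, with 2358 at an unadjusted p below 0.05. Leaving out 1 array gave 0 to 18, with 0 to 13 higher and 0 to 5 lower. With a replicate block 73 were called, 59 of them among the 67. For the response difference between knockout and wild type the count was 2, and it was 1 on the compared arrays, 1 with the replicate block, 0 with a trend (1010 at an unadjusted p below 0.05), 0 over genes above background (560), 19 without the 5 arrays and 1 to 4 when 1 array was left out. Against line R it was 0 (537), and 0 to 2 when 1 array was left out. The wild-type count of 592 became 0 on the compared arrays, 1121 over genes above background, 278 with probe sets averaged and 366 without the 5 arrays. That of line R, 178, became 0, 559, 37 and 80 in the same order, 336 with a trend, 96 with quantile normalization and 108 with equal medians. The cause was not tested, other than that fewer genes or arrays enter some of these fits.

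Of the 61 called genes, all but Cdc42ep5 kept their sign under each alternative run on gene levels, and Cdc42ep5 gave 0.20 with probe sets averaged. They kept the call in 61 cases with a trend, 61 with an offset, 61 over genes above background, 53 with the block, 40 with equal medians, 36 without the 5 arrays, 18 with quantile normalization and 17 with probe sets averaged, and in 0 to 8 when 1 array was left out. Single other probe sets reversed Egfr (0.16), Pde7a (0.01), Babam2 (0.09) and Wdr19 (0.24). Genes not called that changed sign were Akt2 (0.02) and Ccng1 (0.14) with probe sets averaged, and Cdkn1a, at 0.06 with quantile normalization, 0.10 with equal medians, 0.07 with probe sets averaged, and from -0.39 to 0.23 when 1 array was left out, above 0 without untreated replicate 0 (0.13), untreated replicate 1 (0.23) or replicate 2 at 4 h (0.13). List medians that changed sign under at least 1 alternative were those of p53 targets (-0.08 to 0.05), BCL2 family (-0.02 to 0.11), actin and SRF targets (-0.01 to 0.17), cholesterol synthesis (-0.09 to 0.06), the PI3 kinase pathway (-0.16 to 0.04), interferon-stimulated genes (-0.16 to 0.01) and growth factors (-0.10 to 0.13). Those of G2/M genes (-0.15 to 0.11) and NF-kappaB genes (-0.05 to 0.13), near 0 as reported, took both signs. Medians that kept their sign but moved by over 1.5 times ran from 0.23 to 0.53 for ERK feedback inhibitors, 0.12 to 0.27 for TGF-beta, 0.04 to 0.22 for break sensing, 0.10 to 0.24 for heat shock, -0.48 to -0.20 for matrix, -0.49 to -0.24 for LXR, -0.36 to -0.19 for ATF4, -0.23 to -0.04 for circadian, -0.24 to -0.02 for hypoxia and -0.41 to -0.12 for Wnt genes, and from -0.30 to 0.00 for FOXO targets. Signal over background limits dim genes: replicates had a median SD of 0.271 at the lowest 25% of levels, against 0.126 at the highest 25%.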
